A study of Mus musculus with 2 samples.

Results

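The cytotoxic effector genes examined here are 8 genes through which cytotoxic lymphocytes kill other cells: Prf1, Gzma, Gzmb, Gzmk, Gzmm, Ncr1, Nkg7 and Fasl. They were chosen by name, all 8 were found among the 21951 protein-coding genes of GENCODE vM21, and every accessible chromatin peak in the gene body plus 20 kb on each side was taken from both mouse spleen libraries of the study. Cytotoxic T cells and natural killer (NK) cells store perforin and granzymes in secretory granules and release them towards a bound target cell. Perforin forms pores in the target's membrane, granzymes are serine proteases that enter through them and cleave proteins inside, and Fas ligand kills by a separate route, through the death receptor Fas on the target. In the spleen, cells with an active cytotoxic programme are a minority beside B cells, other T cells and macrophages.

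The data come from scFFPE-ATAC, in which nuclei from formalin-fixed, paraffin-embedded (FFPE) tissue are tagged at open DNA with a barcoded Tn5 transposase and then barcoded by split-and-pool ligation. The last ligated barcode carries a T7 promoter, from which the tagged DNA is transcribed in vitro before sequencing. The first library was prepared from mouse spleen without density gradient centrifugation, the step that separates nuclei from debris, and the second from mouse spleen in a 50 µL Tn5 reaction system. For mouse FFPE spleen without the gradient step, the study reports lower library quality than with it. Signal at gene starts was weaker, duplicate reads were more frequent, fewer reads fell in peaks and cell types did not separate clearly. The spleens came, by the study's methods, from 8-week-old C57BL/6J mice, untreated as far as the sources state, and neither label names an animal, the reaction volume of the first library or the gradient step of the second. Each condition is 1 library, so the libraries differ in more than can be separated, no significance test is possible and the values describe these 2 libraries.

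The library without gradient centrifugation held 25343 peaks covering 8.81 Mb, and the 50 µL library held 89382 peaks covering 38.0 Mb. Peaks were called on each library as a whole and not per cell, and the lists carry neither reads nor cell numbers, so depth cannot be read from them. A gene open in few cells cannot be told apart from a gene weakly open in many. Fold enrichment, the pileup at a peak's summit over the local background, had a median of 5.24 without gradient centrifugation and 3.29 in the 50 µL library, and −log10 q, the significance of a peak within its own list, had medians of 10.4 and 13.1. Because the second list is longer, a subset of its 25343 peaks with the highest −log10 q was used beside it and is called the equally long list. Among the marker genes, T cell promoters held a peak at 4 of 6 genes without gradient centrifugation and 5 of 6 in the 50 µL library, CD8 co-receptor promoters at 0 of 2 and 2 of 2, and NK cell promoters at 1 of 5 (Klrd1) and 2 of 5 (Klrd1 and Il2rb). B cell promoters held one at 2 of 6 and 6 of 6, those of red pulp macrophages at 1 of 4 and 3 of 4, and those of other tissues at 0 of 6 in both libraries. In the equally long list the counts were 4 of 6 for T cells, 2 of 2 for CD8, 2 of 5 for NK cells and 5 of 6 for B cells. They were 1 of 4 for red pulp macrophages, the same as without gradient centrifugation, and 0 of 6 for other tissues. Over all protein-coding genes, 43.6% had a promoter peak without gradient centrifugation, 56.6% in the 50 µL library and 45.2% in the equally long list.

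Promoter accessibility of the effector genes was examined first. Promoter peaks were those with any base within 1 kb of an annotated transcription start site (TSS). None of the 8 effector genes had a promoter peak without gradient centrifugation (0 of 8, with an exact 95% interval that reaches 36.9%). Promoter peaks were found at 3 of them in the 50 µL library: Prf1, Gzmb and Fasl (37.5%, interval 8.52 to 75.5%). Over all protein-coding genes, 43.6% had a promoter peak without gradient centrifugation, a share above the upper bound for the effector genes, and 56.6% had one in the 50 µL library, a share inside their interval. The 8 genes were chosen with earlier results of these data known, so a share outside an interval is not a test. With the equally long list, Prf1 alone remained (1 of 8, 12.5%, interval 0.316 to 52.7%), beside 45.2% of all genes.

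All 8 promoters were poor in CpG dinucleotides, the sequence feature that marks most broadly active promoters. The ratio of observed to expected CpG in 1 kb around the 5′ end ran from 0.104 at Gzmm to 0.261 at Gzmk, with a median of 0.167, against a median of 0.553 over all genes. Below a ratio of 0.6, the bound used here for a CpG-poor promoter, lay 54.1% of all genes. Among these 11868 CpG-poor genes, promoter peaks were found at 20.9% without gradient centrifugation, 33.9% in the 50 µL library and 22.8% in its equally long list. Each of these shares lies inside the interval of the 8 effector genes, so with 8 genes no difference from CpG-poor promoters in general was detectable. This background is not matched in CpG content. It reaches a ratio of 0.6 and so holds many promoters richer in CpG than any effector promoter. The intervals cover counting error only.

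**Figure D1:**
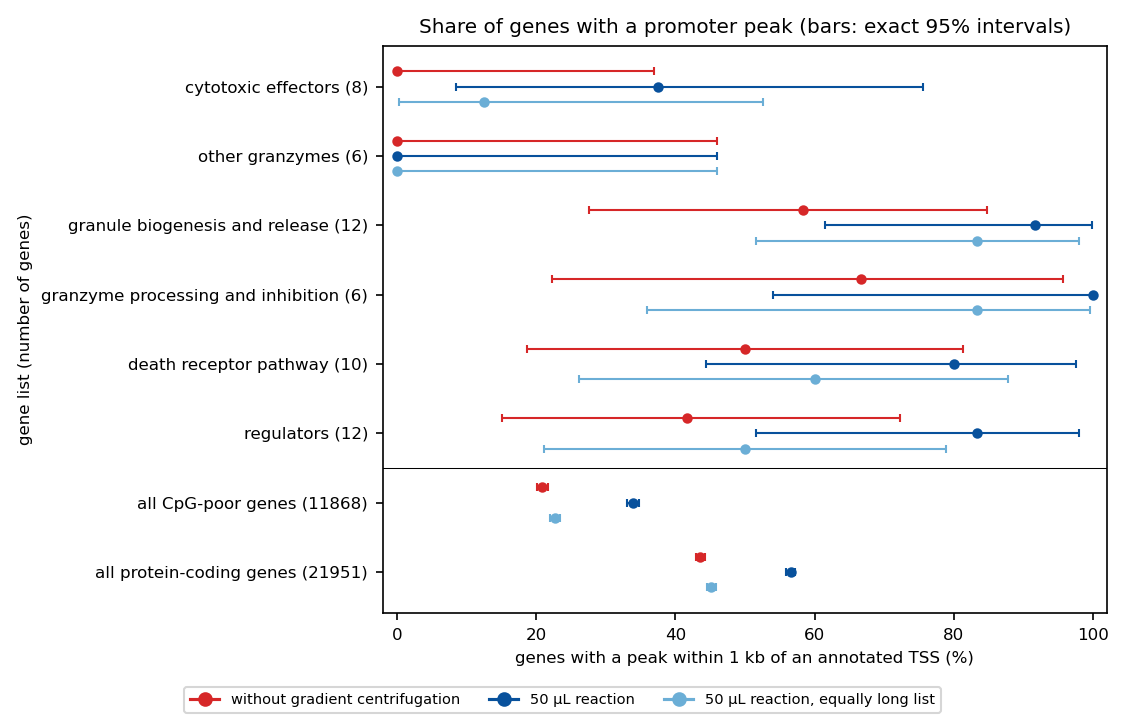
Share of genes with a peak within 1 kb of an annotated TSS (x axis, %) for the 8 effector genes, 5 lists of related genes and the 2 backgrounds (y axis, with the number of genes), with exact 95% intervals as bars; red, without gradient centrifugation, dark blue, 50 µL library, light blue, its equally long list. The effector genes lie at 0, 37.5 and 12.5%, and the other granzymes at 0 in all 3.

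The 3 promoters with a peak are shown first by sequence, because they are the only effector promoters at which either library had a peak. Up to 250 bases before the RefSeq start (GRCm38.p6), without any that are exonic in GENCODE, are printed 5′ to 3′ on the gene's strand, with matches to 5 short motifs in capitals. The motifs were TGTGGT (RUNX factors), GGTGTGA (T-box factors), AGGAAG (ETS factors), TGANTCA (AP-1) and TTCNNNGAA (STAT factors), searched on both strands, and matches may overlap.
Prf1 (chr10:61297586-61297832, plus strand): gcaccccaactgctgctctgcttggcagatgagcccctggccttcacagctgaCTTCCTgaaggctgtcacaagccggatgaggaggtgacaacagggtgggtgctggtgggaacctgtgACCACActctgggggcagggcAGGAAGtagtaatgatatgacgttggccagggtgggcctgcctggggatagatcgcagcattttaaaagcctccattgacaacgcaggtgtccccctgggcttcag
Gzmb (chr14:56262335-56262584, minus strand): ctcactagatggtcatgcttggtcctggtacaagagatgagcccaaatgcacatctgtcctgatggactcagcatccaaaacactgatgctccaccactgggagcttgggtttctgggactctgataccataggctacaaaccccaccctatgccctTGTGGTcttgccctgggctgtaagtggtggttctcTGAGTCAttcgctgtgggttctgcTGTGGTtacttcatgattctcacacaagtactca
Fasl (chr1:161788496-161788745, minus strand): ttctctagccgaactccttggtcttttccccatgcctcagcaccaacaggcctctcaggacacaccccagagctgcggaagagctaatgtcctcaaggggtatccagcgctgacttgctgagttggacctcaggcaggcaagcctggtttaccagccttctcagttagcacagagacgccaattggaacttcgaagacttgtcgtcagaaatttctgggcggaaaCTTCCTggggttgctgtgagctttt
The Prf1 stretch holds 1 RUNX and 2 ETS matches, the Gzmb stretch 2 RUNX matches and 1 AP-1 match, and the Fasl stretch 1 ETS match. Over 32817 RefSeq promoters, the 250 bases before the start held a RUNX match in 14.0%, a T-box match in 3.33%, an ETS match in 29.5%, an AP-1 match in 6.75% and a STAT match in 7.01%. A match is a description of the letters and not evidence that a factor bound there.

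Prf1 encodes perforin, the pore-forming protein, and lies on chromosome 10 from 61297833 to 61304680 (mm10, plus strand). It had no peak in its window without gradient centrifugation, where the nearest peak lay 38.3 kb from its 5′ end, and 8 peaks in the 50 µL library. The promoter peak of the 50 µL library (chr10:61297675-61298019) had its summit 39 bp downstream of the 5′ end, a fold enrichment of 4.38 and a −log10 q of 29.8, which placed it at rank 17340 of 89382. It covered 158 of the printed Prf1 bases, including the RUNX match and 1 of the 2 ETS matches. A second, weaker promoter peak (chr10:61297106-61297526, fold enrichment 2.82) had its summit 408 bp upstream.

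The strongest Prf1 peak was not at the promoter. It lay past the 3′ end of the gene (chr10:61306193-61306775), with its summit 1877 bp beyond that end, a fold enrichment of 5.11, a −log10 q of 44.0 and rank 8016. An intronic peak (chr10:61301198-61301483) had a fold enrichment of 3.95 and a −log10 q of 28.0. Both of these and the main promoter peak belong to the equally long list, in which the window held no other peak. The remaining 4 peaks of the full list in the window had fold enrichments of 2.69 to 3.76, and the bases around the summit of 1 of them (fold enrichment 3.41) were masked entirely as repeat sequence.

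Gzmb encodes granzyme B, which cleaves after aspartate and activates caspases in the target cell, and lies on chromosome 14 from 56258838 to 56262260 (minus strand). Its window held no peak without gradient centrifugation and 3 in the 50 µL library. The Gzmb promoter peak (chr14:56262462-56262690) was among the weakest in the list, with a fold enrichment of 2.47, a −log10 q of 3.61 and rank 88445 of 89382. It was lost when a −log10 q above 5 was required. Its summit lay 236 bp upstream of the 5′ end, and it covered the first 123 printed bases, while the RUNX and AP-1 matches of the Gzmb stretch lay closer to the gene, outside the peak. The other 2 peaks of the window lay 8641 bp upstream of the 5′ end (fold enrichment 3.83) and, towards the granzyme cluster, at the annotated start of the small nucleolar RNA gene Gm24118 (fold enrichment 4.08).

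Fasl encodes Fas ligand and lies on chromosome 1 from 161780689 to 161788495 (minus strand), with no other annotated gene in its window. The Fasl promoter had no peak without gradient centrifugation and a peak of middling rank in the 50 µL library (chr1:161788455-161788932, fold enrichment 2.67, −log10 q 13.1, rank 44453). Its summit lay 111 bp upstream of the 5′ end and the peak covered all 250 printed Fasl bases. Among the effector genes, Fasl had the most peaks in the 50 µL library, 11 in its window, of which 10 lay more than 1 kb from every annotated TSS. Over all protein-coding genes 13.8% had at least as many peaks in the window, and 7.84% had at least as many away from a TSS.

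Windows differ in length, so the number away from a TSS was also taken per kb. On that scale, 5.40% of all genes were at or above Fasl without gradient centrifugation, 0.246% in the 50 µL library and 1.32% in the equally long list. A window without other genes has more sequence that can count as away from a TSS, and the part of this in the Fasl value was not tested. The same shares for Prf1 were 4.74% in the 50 µL library and 5.09% in the equally long list, while it had no peak without gradient centrifugation. The other effector genes did not stand out in the 50 µL library, at 25.9% for Gzmm, 53.2% for Nkg7, 55.2% for Gzmb and 67.5% for Gzmk. Gzma and Ncr1 had no peak at all.

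**Figure D2:**
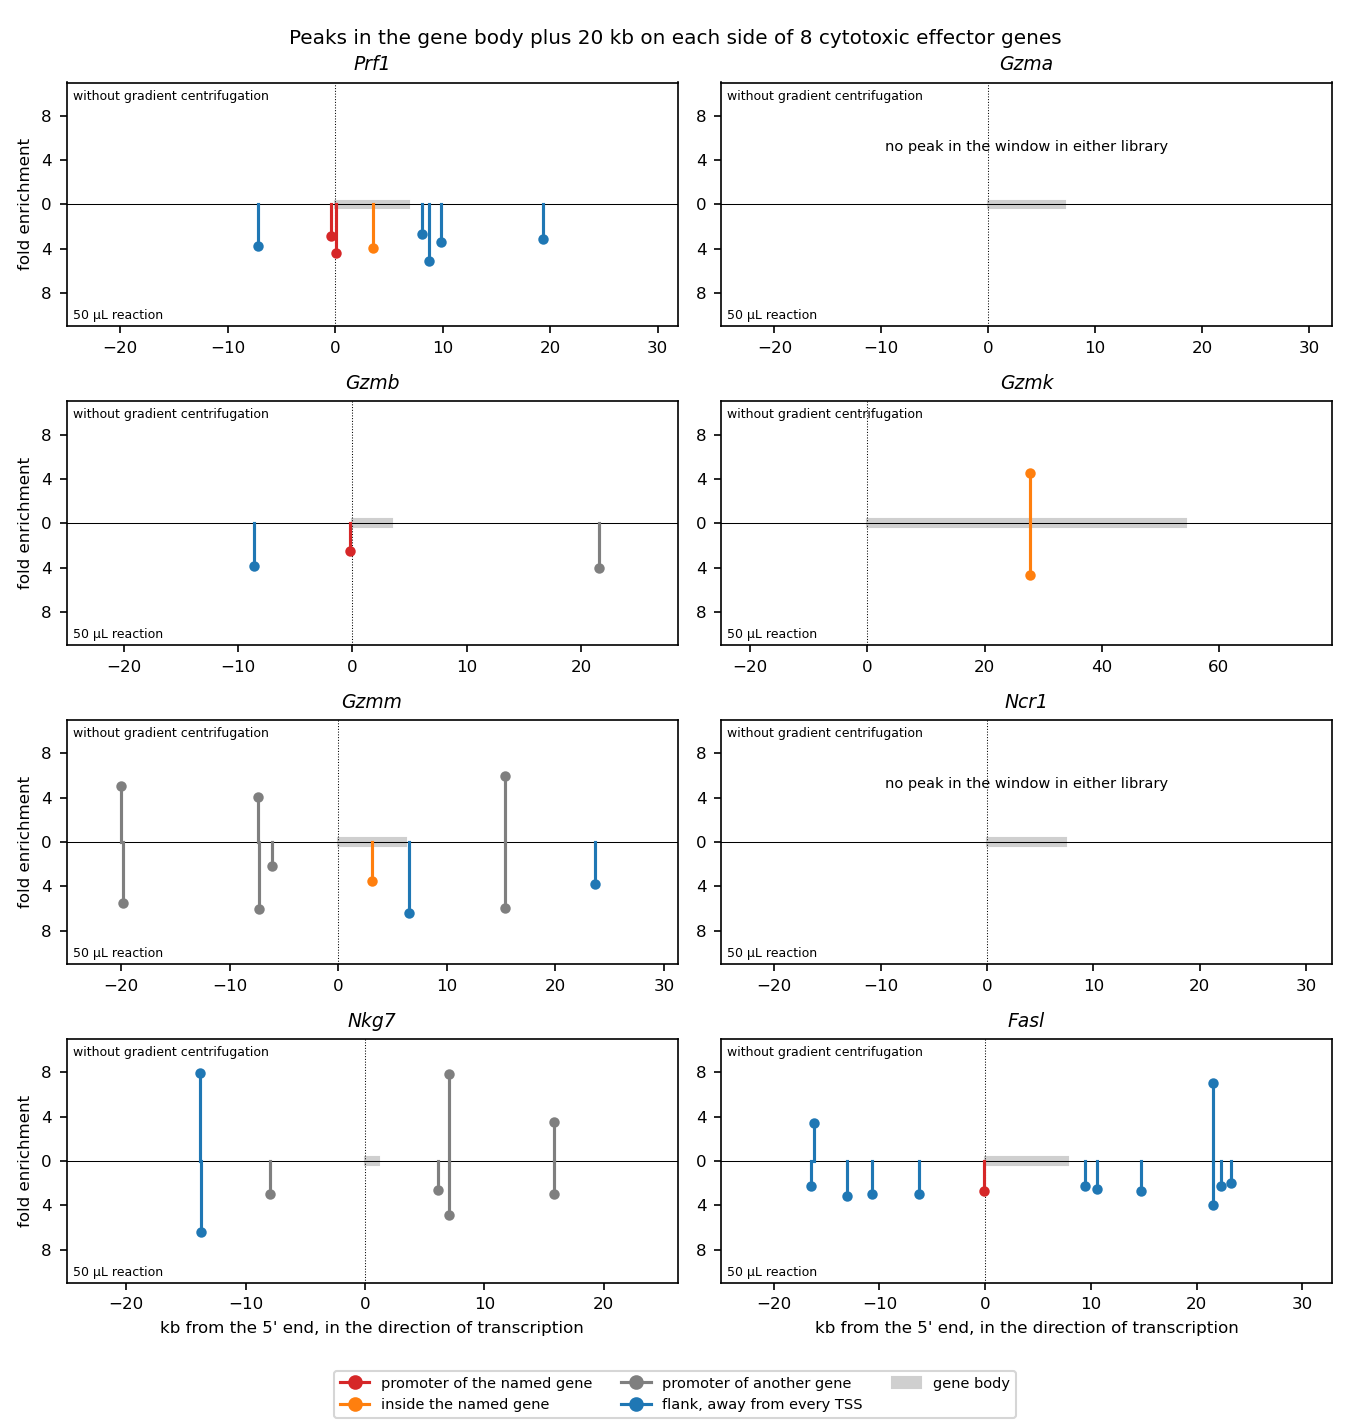
Peaks around each of the 8 genes, drawn at the distance of the summit from the gene's 5′ end (x axis, kb, in the direction of transcription) with a stem as high as the fold enrichment (y axis); stems upwards are from the library without gradient centrifugation, stems downwards from the 50 µL library, and grey boxes are the gene bodies. Stems in both directions meet at the Gzmk intron, upstream of Nkg7 and downstream of Fasl, and the red promoter stems of Prf1, Gzmb and Fasl point downwards only.

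Peaks called in both libraries were found around 4 of the genes. All 9 window peaks without gradient centrifugation overlapped a peak of the 50 µL library, beside 95.3% of all peaks of that library. Only 3 of the 9 overlapped over at least 50% of both peaks, since the 50 µL peaks were often wider. The share of all peaks under that stricter rule is not given, so 3 of 9 cannot be called particular to these windows. Of the 9, 5 lay at the promoter of a neighbouring gene, 1 inside Gzmk and 3 in flanks away from every annotated TSS. The last 4 were 1 at Gzmk, 1 at Nkg7 and 2 at Fasl. Each of these 4 lay nearer to an annotated start of another gene than to one of the effector gene, at 11372 bp for Gzmk, 4225 bp for Nkg7 and 20682 and 9131 bp for Fasl, so their place in a window does not tie them to the effector gene.

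For the strongest of these shared sites at each gene, and for the strongest Prf1 site, 200 bases around the summit in the 50 µL library are printed on the strand of the gene, as GRCm38.p6 gives them, with the same motif matches in capitals. None overlaps an annotated exon.
Fasl, downstream (chr1:161766801-161767000): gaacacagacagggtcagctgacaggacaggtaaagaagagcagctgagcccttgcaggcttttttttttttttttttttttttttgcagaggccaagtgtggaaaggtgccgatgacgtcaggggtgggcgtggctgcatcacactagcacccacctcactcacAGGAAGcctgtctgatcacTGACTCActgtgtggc
Nkg7, upstream (chr7:43423199-43423398): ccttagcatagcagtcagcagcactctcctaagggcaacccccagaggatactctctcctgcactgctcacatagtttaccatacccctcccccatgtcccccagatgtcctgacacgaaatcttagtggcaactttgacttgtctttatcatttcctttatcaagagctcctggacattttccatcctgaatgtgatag
Gzmk, intron (chr13:113198099-113198298): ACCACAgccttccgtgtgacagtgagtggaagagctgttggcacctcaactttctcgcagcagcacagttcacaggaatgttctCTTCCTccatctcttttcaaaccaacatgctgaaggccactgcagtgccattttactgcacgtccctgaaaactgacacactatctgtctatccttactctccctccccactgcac
Prf1, downstream (chr10:61306457-61306656): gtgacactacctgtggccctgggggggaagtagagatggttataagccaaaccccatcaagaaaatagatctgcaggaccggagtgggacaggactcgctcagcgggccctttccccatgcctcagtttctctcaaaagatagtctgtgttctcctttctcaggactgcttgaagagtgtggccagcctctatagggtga
The Fasl stretch holds 1 ETS and 1 AP-1 match and the Gzmk stretch 1 RUNX and 1 ETS match, while the Nkg7 and Prf1 stretches hold none of the 5 motifs.

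The Fasl downstream site had a fold enrichment of 7.07 and rank 1188 of 25343 without gradient centrifugation (chr1:161766738-161767146), against a fold enrichment of 3.97 and rank 6812 of 89382 in the 50 µL library (chr1:161766542-161767822). The summits lay 28 bp apart, 13.8 kb past the 3′ end of the gene. It was the most significant Fasl peak in both libraries and more significant than the Fasl promoter peak. Upstream of Fasl, a second site was called in both, with a fold enrichment of 3.40 without gradient centrifugation and 2.24 in the 50 µL library, its summits 295 bp apart and about 16 kb from the 5′ end. Between that site and the promoter, the 50 µL library alone had 3 further peaks, with fold enrichments of 2.95, 2.98 and 3.19. The 5 other downstream peaks of the 50 µL library were weak, at 2.00 to 2.71.

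Nkg7 encodes a granule membrane protein needed for efficient release of cytotoxic granules, and lies on chromosome 7 from 43437073 to 43438249 (plus strand). No Nkg7 promoter peak was called in either library. The shared upstream site, 13.8 kb before the 5′ end, had a fold enrichment of 7.95 and rank 1945 of 25343 without gradient centrifugation (chr7:43423072-43423445), against 6.44 and rank 1357 of 89382 in the 50 µL library (chr7:43422786-43423595). This site was among the strongest in both lists and its nearest annotated TSS was over 4 kb away. The other Nkg7 window peaks were at promoters of neighbouring genes. Etfb, which encodes a mitochondrial electron transfer subunit, had several, the strongest with a fold enrichment of 7.86 without gradient centrifugation and 4.89 in the 50 µL library. The lens protein gene Lim2 had one in the 50 µL library only (3.02).

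Gzmk encodes granzyme K, a protease that cleaves after basic residues, and lies on chromosome 13 from 113171608 to 113225908 (minus strand). In the annotation 1 long transcript starts at that 5′ end, and the other transcripts start further along, near the RefSeq start. The Gzmk window held the same single intronic peak in both libraries, 27.7 kb downstream of the 5′ end of the long transcript and, in the 50 µL library, 17278 bp upstream of the nearest shorter one. Its fold enrichment was 4.52 without gradient centrifugation (rank 22866 of 25343) and 4.68 in the 50 µL library (rank 31688 of 89382), with summits 47 bp apart. The peak was thus near the bottom of the first list and above the middle of the second, and it did not reach the equally long list.

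Gzmm encodes granzyme M, which cleaves after methionine and leucine, and lies on chromosome 10 from 79689020 to 79695261 (plus strand). Gzmm had no promoter peak in either library, in a window crowded with promoters of other genes. Without gradient centrifugation its 3 window peaks lay at the promoters of Tpgs1 (5.06), Cdc34 (4.06) and Bsg (6.01), and the 50 µL library had peaks at the same promoters with fold enrichments of 5.49, 6.03 and 5.99. Tpgs1 encodes a tubulin polyglutamylase subunit, Cdc34 a ubiquitin-conjugating enzyme and Bsg the membrane protein basigin. The 50 µL library alone had a peak 304 bp past the 3′ end of Gzmm (chr10:79695391-79695718) with a fold enrichment of 6.44, a −log10 q of 41.1 and rank 9450, and a weaker intronic peak (3.48). The peak past the 3′ end belongs to the equally long list, yet nothing was called there without gradient centrifugation.

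Gzma and Ncr1 had no peak in their windows in either library. Gzma encodes granzyme A, a protease that cleaves after basic residues, and lies on chromosome 13 from 113093825 to 113100981 (minus strand). Ncr1 encodes NKp46, an activating receptor of NK cells, and lies on chromosome 7 from 4337724 to 4345164 (plus strand). The nearest peak to the Gzma 5′ end was 64.7 kb away without gradient centrifugation and 53.5 kb away in the 50 µL library. For Ncr1 these distances were 63.4 and 40.1 kb. Windows without any peak were found for 33.7% of all protein-coding genes without gradient centrifugation and 23.8% in the 50 µL library. An absent peak means that none was called at this depth, not that the chromatin was closed.

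**Figure D3:**
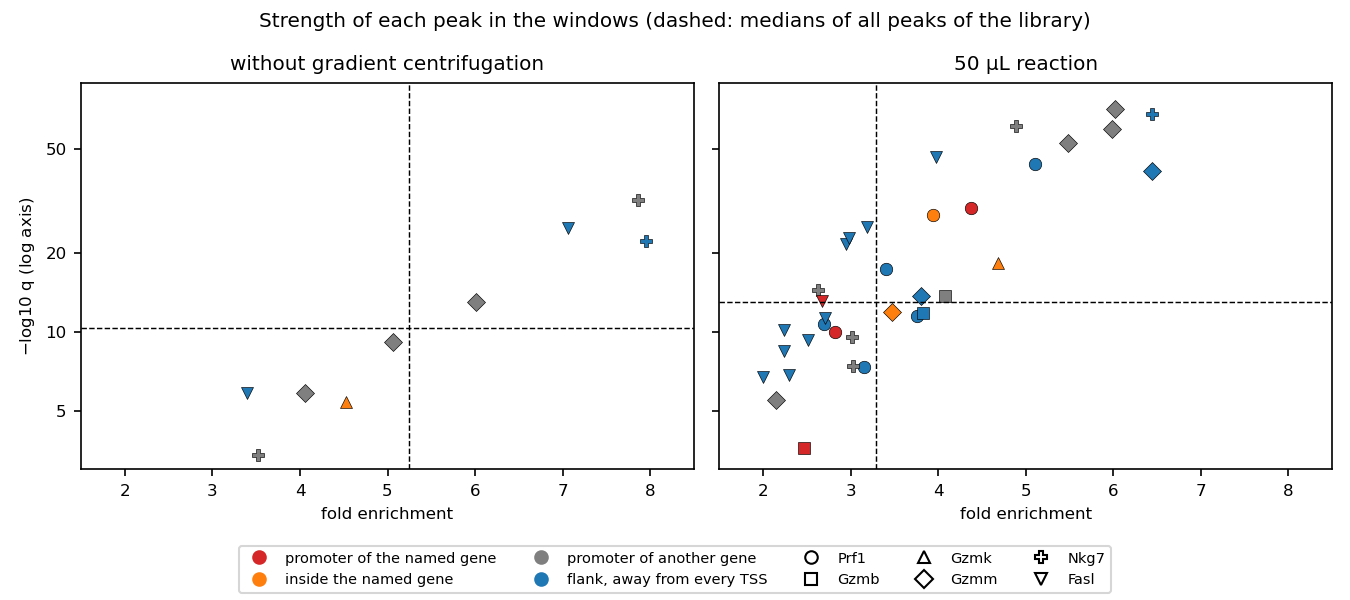
Fold enrichment (x axis) against −log10 q (y axis, log scale) of each peak in the 8 windows, without gradient centrifugation (left) and in the 50 µL library (right); shapes are genes, colours are the place of the peak and dashed lines are the medians of all peaks of the library. Of the 2 red Prf1 promoter peaks 1 lies above both medians of the 50 µL library and 1 below both. The red Gzmb peak is the lowest point of the right panel, and 1 blue site at Nkg7 and 1 at Fasl lie above both medians in both panels.

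The strength of the effector promoter peaks was then set beside other promoters. The 4 peaks at effector promoters in the 50 µL library (2 of them at Prf1) had fold enrichments of 2.47 to 4.38 with a median of 2.75, and all promoter peaks of that library had a median of 3.63. Only the main Prf1 peak was above that median. Of the 35 window peaks of the 50 µL library, 4 lay at the promoter of the effector gene, 3 inside it, 9 at the promoter of another gene and 19 in flanks away from every annotated TSS.

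The total number of peaks around the effector genes was close to that around other genes. Without gradient centrifugation 4 of the 8 genes had a peak in the window and in the 50 µL library 6 did, beside 66.3% and 76.2% of all protein-coding genes. The median number was 0.5 peaks for the effector genes and 1 for all genes without gradient centrifugation, and 4 for both in the 50 µL library. The range behind the second median was wide, from 0 at Gzma and Ncr1 and 1 at Gzmk to 7 at Gzmm, 8 at Prf1 and 11 at Fasl.

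**Figure D4:**
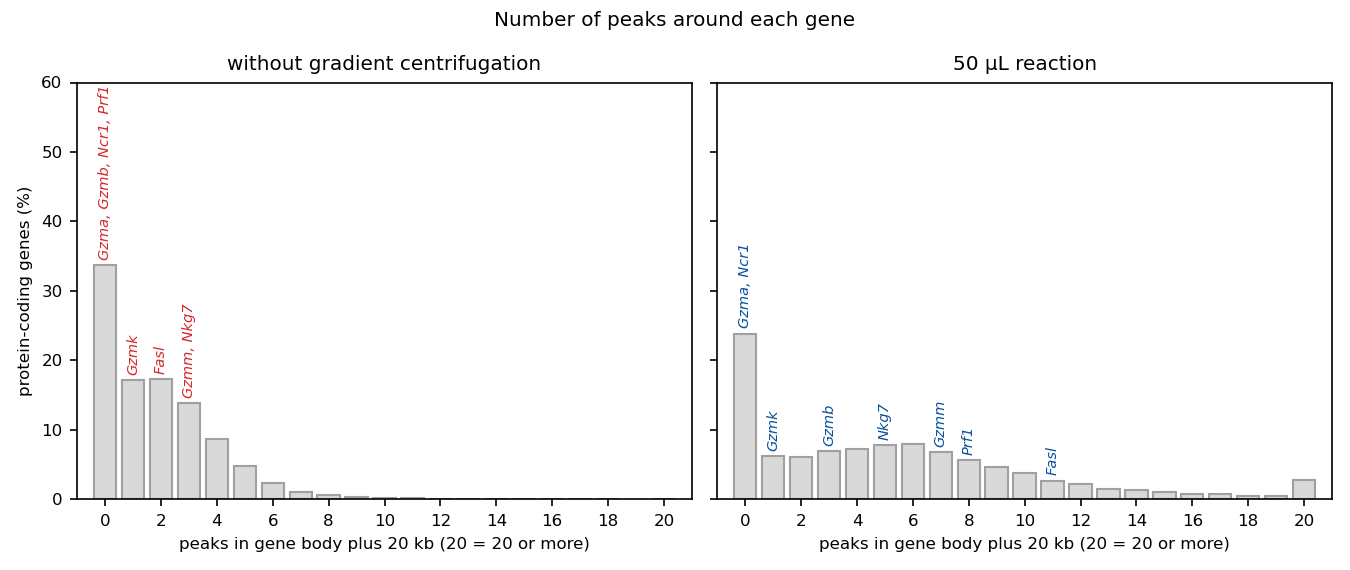
Number of peaks in the gene body plus 20 kb on each side (x axis) over all protein-coding genes (y axis, % of genes), without gradient centrifugation (left) and in the 50 µL library (right), with the 8 effector genes written above their bars. Gzma, Gzmb, Ncr1 and Prf1 stand at 0 on the left, and Fasl stands furthest right in the 50 µL library, at 11.

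Motifs of lymphocyte transcription factors under the summits were counted in 200 bp windows. ETS matches were present in 4 of the 9 windows without gradient centrifugation (44.4%, all peaks 33.3%) and in 14 of 35 in the 50 µL library (40.0%, all peaks 30.4%). RUNX matches were present in 2 of 9 (22.2%, all peaks 16.4%) and 8 of 35 (22.9%, all peaks 18.4%). No window held a T-box match in either library, beside 2.91% and 3.11% of all peaks, while AP-1 and STAT matches were in at most 2 windows of a library. Several of these windows belong to neighbouring promoters, and at these numbers no share can be told apart from that of all peaks.

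The genes around the effectors in the same pathway were taken by list. The other granzyme genes, Gzmc, Gzmd, Gzme, Gzmf, Gzmg and Gzmn, had no promoter peak in either library (0 of 6, with an interval that reaches 45.9%), and all 6 promoters were CpG-poor. Some of these genes are near-identical copies in a cluster beside Gzmb, and reads that fit several copies may have been lost or misplaced, so an absent peak there is uncertain.

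Genes of granule biogenesis and release had a promoter peak at 7 of 12 genes without gradient centrifugation (all protein-coding genes 43.6%). In the 50 µL library 11 of 12 did (all genes 56.6%), and in its equally long list 10 of 12 (all genes 45.2%). Those open in both included Ap3b1, a subunit of the adaptor that sorts proteins to lysosome-related organelles (fold enrichment 7.52 and 4.91), Stx11, a syntaxin of granule fusion (5.94 and 4.25), and Stxbp2, its binding partner (5.45 and 4.23). Rab27a, which tethers granules at the membrane, the lysosomal membrane protein gene Lamp2, the lysosomal trafficking regulator Lyst and the SNARE gene Vamp8 made up the 7. The most significant promoter peak of the list in the 50 µL library was at Unc13d, the priming factor of granule fusion (fold enrichment 5.58, −log10 q 59.1), which had none without gradient centrifugation. Of the 12 genes, Cd63 was the one with a promoter peak in neither library.

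Of the genes that process or inhibit granzymes, 4 of 6 had a promoter peak without gradient centrifugation (all protein-coding genes 43.6%). In the 50 µL library 6 of 6 did (all genes 56.6%), and in its equally long list 5 of 6 (all genes 45.2%). Ctsc, whose product cathepsin C activates granzymes by trimming them, had a promoter fold enrichment of 4.02 and 3.88, the lysosomal protease gene Ctsl 9.03 and 5.63, Serpinb9, an inhibitor of granzyme B, 4.35 and 4.38, and the serpin gene Serpinb6b 4.05 and 3.62. Cst7, which encodes the cathepsin inhibitor cystatin F, had a promoter peak in the 50 µL library only (5.58). Of these 6 promoters 5 were CpG-poor, as those of the effectors were.

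In the death receptor pathway, on the receiving side of Fas ligand, 5 of 10 genes had a promoter peak without gradient centrifugation (all protein-coding genes 43.6%). In the 50 µL library 8 of 10 did (all genes 56.6%), and in its equally long list 6 of 10 (all genes 45.2%). The adaptor gene Fadd (5.68 and 4.44), the initiator caspase gene Casp8 (4.72 and 3.29), its inhibitor Cflar (3.13 and 2.27) and Bid, which links the pathway to mitochondria (4.92 and 3.69), were among those with promoter peaks in both. At Casp8, Cflar and Bid, the values come from peaks that did not overlap between the 2 libraries. Fas itself, the receptor of Fas ligand, had one in the 50 µL library only (2.50).

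Among 12 genes that regulate the cytotoxic programme, counted with the cytokine gene Ifng, 5 had a promoter peak without gradient centrifugation (all protein-coding genes 43.6%). In the 50 µL library 10 of the 12 did (all genes 56.6%). In the equally long list 6 of the 12 did (all genes 45.2%), and Runx3, Stat4 and Ifng were no longer among them. The transcription factor genes Runx3 (4.79 and 4.35), Prdm1 (6.14 and 4.40), Id2 (3.92 and 3.13) and Stat4 (2.96 and 2.66) were open in both. Tbx21, which encodes T-bet (4.15), Nfil3, a factor of NK cell development (4.76), and Il2rb, a receptor chain for interleukins that sustain these cells (6.29), had a promoter peak in the 50 µL library only. Eomes, the T-box relative of T-bet, and Il12rb1 had none in either library. At Prdm1 and Stat4, the values come from peaks that did not overlap between the 2 libraries.

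Over all 46 genes of these 5 lists, 21 had a promoter peak without gradient centrifugation (45.7%, interval 30.9 to 61.0%), 35 had one in the 50 µL library (76.1%, interval 61.2 to 87.4%), and 27 did in the equally long list (58.7%, interval 43.2 to 73.0%). Over all protein-coding genes the shares were 43.6%, 56.6% and 45.2%. Without gradient centrifugation and in the equally long list the share of all genes lay inside the interval, and in the full 50 µL list it lay below it. Because the lists were chosen with earlier results of these data known, these positions are not a test. Of the 46, 27 were CpG-poor, against 8 of 8 effector genes. Many of these genes serve other cell types too, and the libraries do not tell in which cells a promoter was open.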

How the data were processed

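scFFPE-ATAC was performed on mouse FFPE spleen, with 1 library without density gradient centrifugation and 1 in a 50 µL reaction system. By the study's methods, alignment to mm10 was with BWA mem, after which the authors removed duplicates, called peaks with MACS2 (no model, no shift, q-value of 0.01) on each library and removed blacklisted regions. The submitters' processing notes name BWA, SAMtools, mm10 and hg38. Reads were not shifted to the Tn5 insertion, so a summit may lie some bases from it. No source says if peak calling used reads from barcodes outside the cell filter. The protocol in the labels gives 1 reaction volume for every library, which differs from the 50 µL of the title.

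The fold enrichment in the deposited lists is the ratio of summit pileup to local background. Each deposited peak also has a −log10 p, not used here, and a −log10 q from MACS2. The deposited display score was not used. These values depend on depth, which the lists do not give, so they rank peaks within 1 list.

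Peaks were matched to GENCODE vM21, with chromosome lengths checked against GRCm38. In the 50 µL list, 89216 of 89382 peaks lay on the reference chromosomes. All 8 genes matched the RefSeq promoter table. Members, gene lists and motifs were chosen with earlier results of these data known. The text names all members, every other granzyme, genes of the other lists with a promoter peak without gradient centrifugation, the 4 most significant of each list in the 50 µL library and neighbours with a promoter peak in a window. The values of 1 gene that this rule names are not reported here. Fas, Eomes, Il12rb1 and Cd63 were named after their values were seen. Alternatives were other promoter windows, the 5′ end alone, summits, stricter peak thresholds (−log10 q over 5, or fold enrichment 4 and higher), the equally long list, flanks of 10 and 50 kb, 50% reciprocal overlap, 3 kb from a TSS and other motif windows. Shares have exact (Clopper-Pearson) 95% intervals. Counting was tested on simulated data. Python 3.11.15, numpy 2.4.6, pandas 2.3.3, scipy 1.17.1, pysam 0.24.0 and matplotlib 3.10.9 were used.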

Additional observations from a re-analysis of the deposited data

How the results depend on the processing

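The count of effector promoters with a peak stayed at 0 of 8 without gradient centrifugation under all 7 alternatives. In the 50 µL library it was 3, and 1 with a fold enrichment of at least 4 or with the equally long list. The other cytotoxicity genes with a promoter peak in that library numbered 35, and 19 with a fold enrichment of at least 4. Window peaks without gradient centrifugation numbered 9, with 4 at a flank of 10 kb and 17 at a flank of 50 kb. In the 50 µL library they numbered 35, with 23 at 10 kb, 68 at 50 kb, 10 with a fold enrichment of at least 4 and 12 in the equally long list. Flanking peaks away from every TSS in that library numbered 19, and 3 with a fold enrichment of at least 4. Of 9 shared peaks, 3 met a reciprocal overlap of 50%. Windows with any motif numbered 6 without gradient centrifugation and 22 in the 50 µL library, and 2 and 11 when 100 bp were searched. Each of these alternatives counts fewer peaks or another length of sequence by construction. The other 41 alternative counts of these results stayed within 1.5 times the main count. Among them, effector promoters with a peak in the 50 µL library numbered 4 with a promoter window of 2 or 3 kb. They numbered 2 with a −log10 q above 5. No paired analysis was possible because each condition has 1 library. Animal, depth and preparation cannot be told apart, and all effector values rest on 8 genes.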

Other observations

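Ifng, the gene of the cytokine interferon gamma, had a promoter peak in each library but not the same one. Without gradient centrifugation the peak (fold enrichment 5.49) started at position 118442042 of chromosome 10, and in the 50 µL library the peak (3.20) started at 118440782. The gene starts at 118441046 on the plus strand. The 50 µL peak covered that start, while the other peak lay inside the gene, at the edge of the 1 kb window around it. Among the 21 genes of the related lists with a promoter peak without gradient centrifugation, 20 had promoter peaks that overlapped between the libraries and Ifng did not. Over all peaks without gradient centrifugation, 95.3% overlapped a 50 µL peak. The same share by gene is not given here, so the Ifng case is not shown to be unusual.

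Inside the granzyme cluster, the library without gradient centrifugation had 1 peak in the window of Gzmf (chr14:56204146-56204345, fold enrichment 5.32, −log10 q 7.73, rank 18152 of 25343), and it had no overlapping peak in the 50 µL library. The 50 µL library had 1 peak in the window of Gzmc, the peak at the start of Gm24118 described with Gzmb. The windows of Gzmd, Gzme, Gzmg and Gzmn held no peak in either library.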
